A study of Mus musculus with 8 samples.

Results

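The proteasome genes of mouse liver are described here across 4 combinations of diet and drinking water. The members are the transcript clusters (the array's unit for a gene) that the platform annotation pairs with a symbol beginning Psma to Psmg followed by a number, with no condition on expression. This gave 57 of the 35556 clusters in the table, covering 50 genes named alone and 1 further cluster that carries 2 symbols. The members hold the proteasome's core, caps, activators, inhibitor and assembly factors. Psmc3ip, whose product acts in meiotic recombination, and Psme3ip1, which is named for a partner of an activator, are among them by name and are not subunits. The annotation lists 3 clusters for Psma3 and 2 each for Psma5, Psmb3, Psmc1 and Psmd2; the clusters of 1 gene are not independent of each other.

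Male C57Bl/6J mice were kept for 10 weeks on a diet low in fat (LFD, 13% of its calories) or high in fat (HFD, 42%). Their water was deionized, either without addition or with sodium arsenite giving 3 mg of inorganic arsenic per litre (As), so that the groups were LFD, LFD+As, HFD and HFD+As. RNA of 5 mice was pooled for each Affymetrix array and each group of 10 mice gave 2 arrays, so n = 2 pools per group throughout and the spread is one between pools. A source label gives 90 days in place of the 10 weeks, and the age of the mice is not given in the sources used here. The deposited values are log2 signals, so a difference of 1 is a doubling in linear signal. The hepatocyte marker list had a mean signal between 13.63 and 13.83 on the 8 arrays, near the top of the range (highest value 14.80), with Alb at 14.44 to 14.48. In bulk liver, fewer cells of a type and less RNA per cell cannot be told apart.

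The 26S proteasome degrades proteins that carry ubiquitin chains. Its 20S core is a stack of outer rings of alpha subunits and inner rings of beta subunits, of which Psmb5, Psmb6 and Psmb7 carry the proteolytic sites. In cells exposed to interferon the inducible subunits Psmb8, Psmb9 and Psmb10 can take their places, which changes the peptides made for antigen presentation. The 19S cap consists of a base with ATPases that unfold substrates and a lid that removes ubiquitin. PA28 and PA200 are alternative caps. Arsenite binds protein thiols and is a classical proteotoxic agent, and the transcription factor Nfe2l1 is known to raise proteasome genes when proteasome activity falls.

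Proteasome genes were higher in livers of mice given the high-fat diet and arsenite together than in LFD livers. The 20S subunit gene Psma7 rose 2.36-fold and Psma5, Psmb6 and Psmb1 rose by 1.58- to 1.87-fold, and the 20S assembly genes Psmg4 and Psmg1 and the 19S ubiquitin receptor gene Psmd4 rose by 1.44- to 1.59-fold. These were 8 clusters of 7 genes at an adjusted p under 0.05 (limma, Benjamini-Hochberg over 23410 clusters), all of them higher. That is 14.0% of the 57 members, where 1.94% of all fitted clusters passed in that direction (4.57% in either). Of the members, 49 of 57 had a positive difference against 43.9% of all clusters, with a median of 0.29 log2 units against -0.03. Both HFD+As pools lay above both LFD pools for 35 of 57 members, where this held for 16.3% of all clusters. Both lay below for 2 members (Psme3 and Psmf1), where 29.1% of all clusters did so. An unadjusted p under 0.05 was reached by 28 of 57 members (20.6% of all clusters), 26 of them higher (7.13% of all). In the lower direction 2.64% of all clusters and 0 members were called. The last members inside the threshold were a Psma5 cluster (adjusted p = 0.0371) and Psmd4 (0.0469), and the first ones outside it were Psmb2 (0.0573) and Psmd13 (0.0587).

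**Figure D1:**
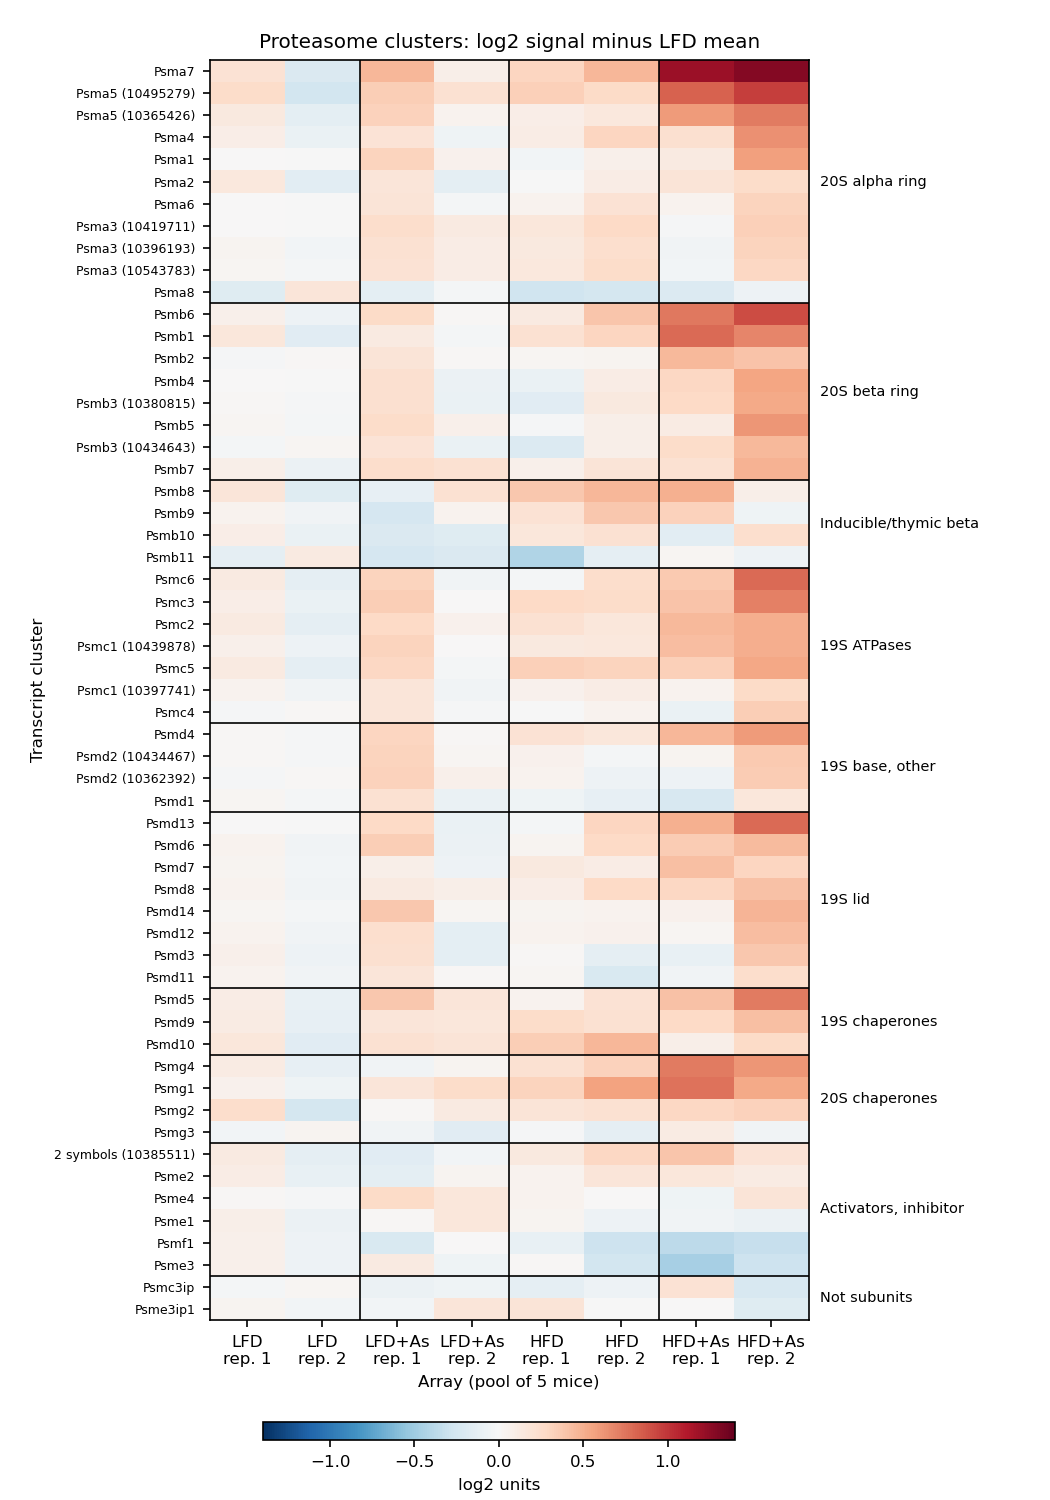
Colour gives each proteasome cluster's log2 signal minus its LFD mean, in log2 units, in rows by cluster (sorted within a role by the HFD+As against LFD difference) and in columns by array, each a pool of 5 mice. The strongest red is in the HFD+As columns, led by Psma7. Psmb8 reads 0.50 in the first HFD+As pool and 0.09 in the second, and Psme3 and Psmf1 are blue in both.

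The 8 calls depended on which arrays were fitted. With any 1 of the 4 LFD and HFD+As arrays left out 0 members passed, although the median over the members then stayed between 0.18 (without LFD replicate 2) and 0.38 (without HFD+As replicate 1). With LFD+As replicate 1 or replicate 2 left out, Psma7 was the 1 member that passed (0.427% of all clusters). With HFD replicate 1 or replicate 2 left out 7 of the 8 still passed (4.73% of all clusters) and Psmd4 did not. Among 1 cluster per gene of the 60% brightest genes, 15 of 46 members passed (16% of all 11963 genes), and with each array's median set equal 5 of 57 did (1.55% of all clusters). A fit of the LFD and HFD+As arrays alone called 1 member (0.666% of all clusters), and a fit to all 35556 clusters, also those without a gene symbol, called 0 members and 0 clusters in all.

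The alpha ring, which gates entry to the 20S core, held the largest change. Psma7 read 9.37 and 8.97 in the LFD pools, 9.64 and 9.25 with arsenite, 9.48 and 9.64 on the high-fat diet and 10.37 and 10.45 with both. Both HFD+As pools stood above every other pool. The difference from LFD was 1.24 (SE 0.17, adjusted p = 0.0302), and it lay between 1.04 and 1.44 with any 1 array left out. Of the 2 Psma5 clusters, the one with the larger change read 9.13 and 8.61 in the LFD pools, 9.22 and 9.09 with arsenite, 9.20 and 9.14 on the high-fat diet and 9.70 and 9.84 with both. Its difference from LFD was 0.90 (SE 0.16, adjusted p = 0.0318), and that of the other cluster was 0.66 (SE 0.14, adjusted p = 0.0371). Thus 3 of the 11 alpha ring clusters passed, for 2 genes, and 10 of 11 were positive, with a median of 0.22. Psma1, Psma2, Psma4 and Psma6 had differences from 0.18 to 0.43 and did not pass. The 3 Psma3 clusters had nearly equal values (0.13 to 0.16) and correlated over the 8 arrays at 0.986 or more. Psma8, the alpha subunit of the testis, was the lowest of the ring at -0.13, with signals of 6.27 to 6.72 on all 8 arrays that were among the lowest of the members.

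The upstream sequences of Psma7, of the catalytic subunit gene Psmb6 and of the inducible subunit gene Psmb8 are shown, as the most raised member, a raised catalytic subunit and an inducible subunit that did not pass. Each is the 250 bases before the start site on the gene's strand in RefSeq's GRCm38.p6, at chr2:180042465-180042714 (minus strand), chr11:70525107-70525356 (plus strand) and chr17:34197945-34198194 (plus strand). Capitals mark the motif matches.
Psma7: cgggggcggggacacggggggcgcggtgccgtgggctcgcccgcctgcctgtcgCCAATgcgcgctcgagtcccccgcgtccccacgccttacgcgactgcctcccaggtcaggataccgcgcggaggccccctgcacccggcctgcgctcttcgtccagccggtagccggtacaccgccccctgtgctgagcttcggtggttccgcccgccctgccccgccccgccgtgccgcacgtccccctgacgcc
Psmb6: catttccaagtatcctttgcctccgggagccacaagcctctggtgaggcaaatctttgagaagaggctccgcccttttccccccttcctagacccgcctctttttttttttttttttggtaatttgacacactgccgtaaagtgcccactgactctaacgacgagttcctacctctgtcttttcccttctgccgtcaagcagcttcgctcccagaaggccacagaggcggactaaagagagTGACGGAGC
Psmb8: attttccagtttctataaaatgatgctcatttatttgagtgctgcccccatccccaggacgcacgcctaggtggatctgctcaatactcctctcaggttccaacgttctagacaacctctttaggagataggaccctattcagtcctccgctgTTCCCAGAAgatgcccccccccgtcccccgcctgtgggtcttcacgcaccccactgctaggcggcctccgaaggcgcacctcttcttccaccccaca
The capitals are a CCAAT box in Psma7, an antioxidant response element core (TGACNNNGC, the kind of element bound by Nfe2l1 and Nfe2l2) in Psmb6, whose first base lies 9 bases before the start, and a gamma-activated site (TTCNNNGAA) in Psmb8. Windows of 300 bases, from 250 before to 50 after the start, were found for 42 of the 50 member genes and searched on both strands. The antioxidant element core was in 13.0% of the 46 member windows and in 12.4% of all 32851 windows. The shares were 34.8% and 37.4% for CCAAT, 6.52% and 8.30% for the gamma-activated site, and 15.2% and 8.56% for an interferon-stimulated response element (GAAANNGAA). Of the 7 raised genes, Psmb6 held the antioxidant element core, Psma7 and Psmd4 CCAAT, Psmd4 and Psmg4 the interferon-stimulated element and Psmg1 the gamma-activated site. No match was listed for Psma5 and Psmb1, which would also be so for a gene without a window. A match is a string of letters and not shown to be a bound site.

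All 8 clusters of the constitutive beta ring were positive in HFD+As against LFD and had HFD+As pools above both LFD pools. Their differences ran from 0.35 to 0.82 with a median of 0.41, and 2 passed the test. Psmb6, which carries the caspase-like site, read 10.27 and 10.13 in the LFD pools, 10.46 and 10.21 with arsenite, 10.33 and 10.59 on the high-fat diet and 10.94 and 11.11 with both. The HFD+As pools were the 2 highest, and the difference from LFD was 0.82 (SE 0.14, adjusted p = 0.0306). Psmb1, a beta ring subunit without a proteolytic site, read 9.99 and 9.66 in the LFD pools, 9.95 and 9.80 with arsenite, 10.03 and 10.12 on the high-fat diet and 10.62 and 10.51 with both. It rose by 0.74 (SE 0.13, adjusted p = 0.0318). Psmb5, the chymotrypsin-like subunit, was at 0.37 (SE 0.16, adjusted p = 0.239), with HFD+As pools of 12.59 and 13.10 against 12.50 and 12.45 in LFD. Psmb7, the trypsin-like subunit, was at 0.35 (SE 0.13, adjusted p = 0.157). Psmb2 (0.43), Psmb4 (0.42) and the 2 Psmb3 clusters (0.35 and 0.41) did not pass either.

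**Figure D2:**
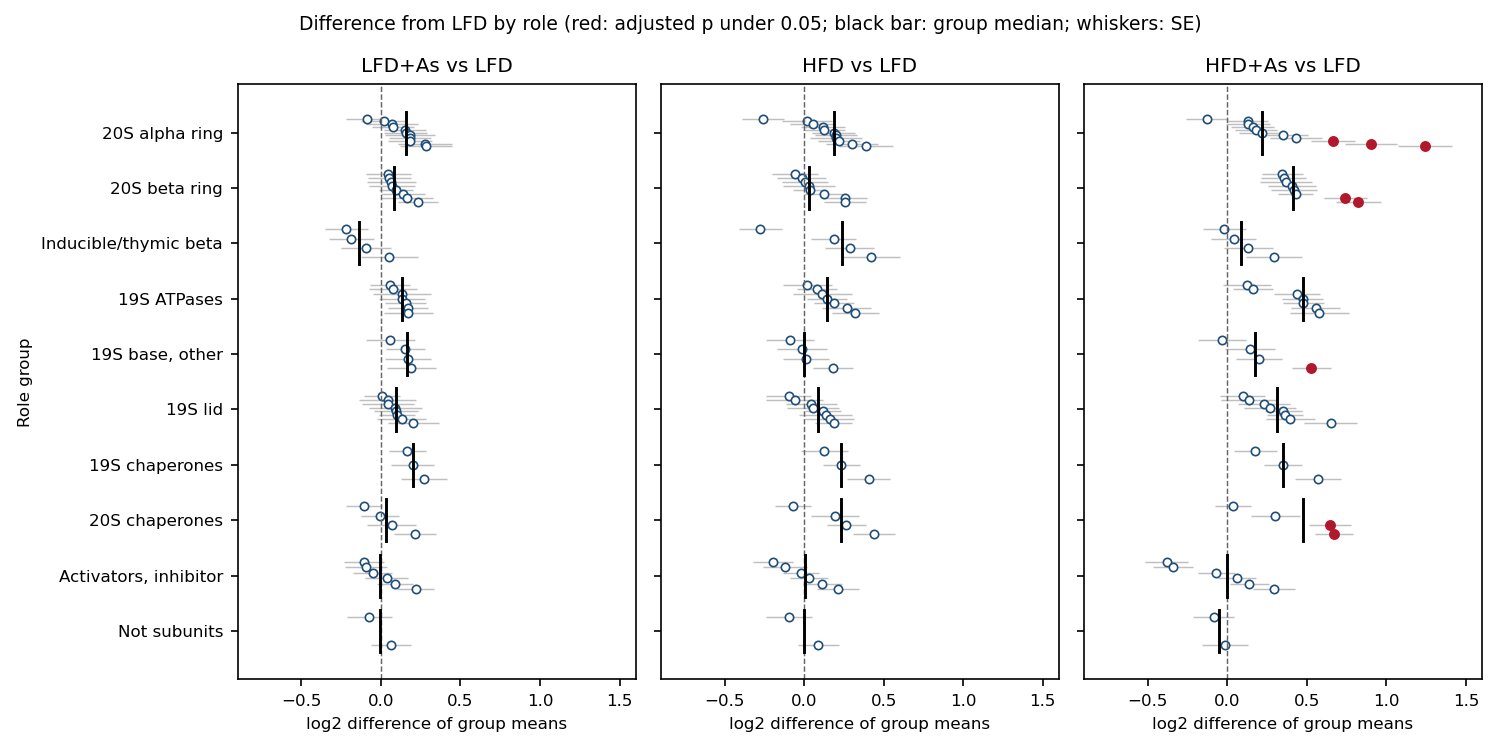
Points are the proteasome clusters' log2 differences from LFD, in rows by role, with whiskers of 1 SE and a black bar at each role's median, and the panels are LFD+As, HFD and HFD+As. The 8 clusters in red passed an adjusted p of 0.05 and are all in the HFD+As panel.

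The inducible counterparts of the catalytic subunits had smaller differences and none passed. Psmb8 read 7.84 and 7.49 in the LFD pools, 7.56 and 7.88 with arsenite, 8.05 and 8.14 on the high-fat diet and 8.17 and 7.75 with both. It was at 0.29 in HFD+As against LFD (SE 0.18, adjusted p = 0.415) and at 0.42 in HFD (adjusted p = 0.635), where both pools lay above both LFD pools. Psmb9 was at 0.13 in HFD+As (SE 0.16, adjusted p = 0.713) and at 0.29 in HFD. Psmb10 was at 0.04 in HFD+As (SE 0.14, adjusted p = 0.919) and at 0.19 in HFD. The pools of HFD+As overlapped those of LFD for each of the 3, whereas for Psmb5, Psmb6 and Psmb7 they did not; whether the inducible and constitutive subunits differ in their change was not tested. In LFD+As the 3 were at 0.05, -0.09 and -0.19. Psmb11, the thymic beta subunit, was dim on all 8 arrays (6.25 to 6.80).

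**Figure D3:**
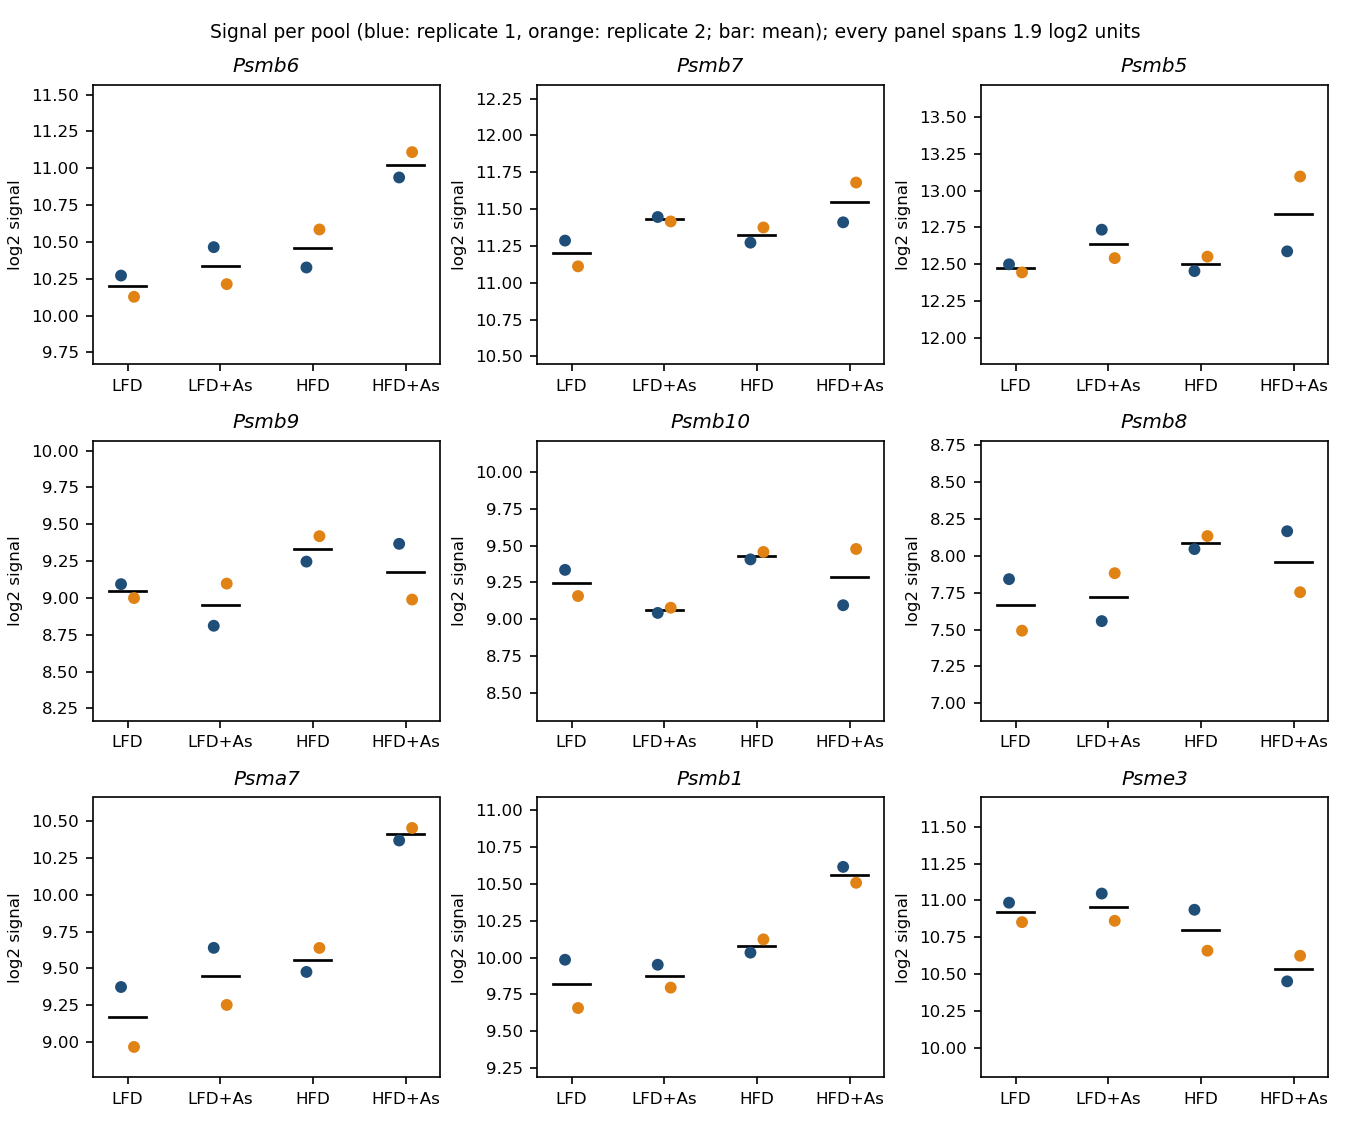
Points are the log2 signals of single pools (blue replicate 1, orange replicate 2) and bars the group means, for the catalytic subunits Psmb6, Psmb7 and Psmb5 (top), their inducible counterparts Psmb9, Psmb10 and Psmb8 (middle), and Psma7, Psmb1 and Psme3 (bottom). The HFD+As pools are above all others for Psmb6, Psma7 and Psmb1, overlap LFD for the middle row, and lie lowest for Psme3.

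Genes that share interferon control with the inducible subunits were mostly not higher in HFD+As. Of 10 measured genes of class I antigen presentation 1 was positive against LFD (median -0.11), and Tapbp, which loads peptide on class I molecules, fell by 0.66 (SE 0.15, adjusted p = 0.0413). Of 15 measured interferon-stimulated genes 2 were positive (median -0.28), and Rsad2, an antiviral gene, fell by 0.98 (SE 0.22, adjusted p = 0.0416). Against LFD, 4 of the 15 were positive in LFD+As (median -0.30) and 9 in HFD (median 0.06), with 0 called in either. Rsad2 was at -0.74 in LFD+As and -0.59 in HFD. Immune cells express inducible subunits at high levels, so their markers are given beside them. In HFD, where Psmb8 and Psmb9 had their highest group means, 11 of 13 measured Kupffer cell and macrophage markers were positive (median 0.30), with 0 called by limma and 5 at an unadjusted p under 0.05. The list's mean signal was 9.35 and 9.43 in LFD and 9.58 and 9.73 in HFD. Its part in these values was not tested. In HFD+As the median of this list was -0.25 against LFD, with Marco called higher. Lymphocyte markers had a median of -0.02 in HFD and -0.00 in HFD+As, and dendritic cell markers of -0.04 and -0.08. These 2 lists were dim, with mean signals of 6.6 to 6.8 and 7.2 to 7.6 on the 8 arrays. The median of all fitted clusters was 7.43, so small medians of such markers do not show that these cells were unchanged.

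In the 19S base, the 7 clusters of the ATPase genes Psmc1 to Psmc6, which unfold substrates, were all positive in HFD+As against LFD. Their median was 0.47 and 0 passed, with 5 at an unadjusted p under 0.05. Psmc6 was highest at 0.58 (SE 0.18), with pools of 10.40 and 10.14 in LFD and 10.64 and 11.06 in HFD+As. Psmc4 was lowest at 0.13 (SE 0.15), and its pools overlapped. The 2 Psmc1 clusters differed, at 0.16 and 0.47, and correlated over the arrays at 0.817. Psmd4, which binds ubiquitin chains, read 9.17 and 9.13 in the LFD pools, 9.44 and 9.16 with arsenite, 9.35 and 9.31 on the high-fat diet and 9.61 and 9.74 with both. It rose by 0.53 (SE 0.12, adjusted p = 0.0469). The base scaffold genes had smaller differences than Psmd4 and did not pass. Psmd1 was at -0.03 (SE 0.15) and the 2 Psmd2 clusters were at 0.14 and 0.20. Whether they differ from the other base genes in their change was not tested.

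The 19S lid genes were likewise positive without passing. All 8 had a positive difference from LFD in HFD+As, with a median of 0.31, and 4 had an unadjusted p under 0.05. Psmd13 was highest at 0.65 (SE 0.17, adjusted p = 0.0587), with LFD pools of 9.78 and 9.76, 10.05 and 9.68 with arsenite, 9.75 and 10.07 on the high-fat diet and 10.27 and 10.57 with both. Psmd14, which encodes the lid's deubiquitinase, was at 0.27, and Psmd11 was lowest at 0.10 (SE 0.14).

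Assembly factors were among the raised members. Psmg4, a subunit of the chaperone that helps to build the alpha ring, read 8.13 and 7.90 in the LFD pools, 7.97 and 8.05 with arsenite, 8.23 and 8.34 on the high-fat diet and 8.74 and 8.64 with both. It rose by 0.67 (SE 0.12, adjusted p = 0.0317) and its HFD+As pools were above all others. Psmg1, also an alpha ring chaperone, read 8.41 and 8.28 in the LFD pools, 8.51 and 8.60 with arsenite, 8.66 and 8.91 on the high-fat diet and 9.10 and 8.87 with both. It rose by 0.64 (SE 0.13, adjusted p = 0.0359), and its HFD and HFD+As pools overlapped. Psmg2 was at 0.30 and Psmg3, with signals near 7, at 0.04. Of the 3 chaperones of the 19S base, Psmd5 was at 0.57 (SE 0.15, adjusted p = 0.0593), Psmd9 at 0.35 and Psmd10, also known as gankyrin, at 0.17.

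The activators and the inhibitor had no common direction, with 3 of 6 clusters positive and 0 called. Psme3, the nuclear PA28 gamma, read 10.98 and 10.85 in the LFD pools, 11.05 and 10.86 with arsenite, 10.94 and 10.66 on the high-fat diet and 10.45 and 10.62 with both. The HFD+As pools were the 2 lowest, and the difference was -0.38 (SE 0.14, adjusted p = 0.149). Psmf1, an inhibitor of the 20S core, was at -0.34, also with HFD+As pools below both LFD pools. The interferon-inducible PA28 genes Psme1 and Psme2 did not pass, Psme1 at -0.07 (adjusted p = 0.807) and Psme2 at 0.14 with an SE of 0.12 (adjusted p = 0.605). The cluster with 2 symbols, shared by Psme2 and a copy of it, was at 0.29 (SE 0.13). Psme4, which encodes PA200, was at 0.06. Psmc3ip and Psme3ip1 were at -0.01 and -0.09.

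Proteasome genes outside the Psm naming were taken from a list of other parts and regulators, of which 14 were measured. In HFD+As against LFD 7 of 14 were positive (median -0.01) and 1 passed. Pomp, the maturation protein that the 20S core needs and consumes in assembly, read 9.72 and 9.48 in the LFD pools, 9.78 and 9.69 with arsenite, 9.75 and 9.79 on the high-fat diet and 10.45 and 10.30 with both. It rose by 0.77 (SE 0.12, adjusted p = 0.0306), with both HFD+As pools above all others. Sem1, a small lid subunit, was at 0.50 (SE 0.15, adjusted p = 0.0894). The cap deubiquitinase genes Usp14 and Uchl5 were at -0.04 and 0.01. The regulator genes Nfe2l1 and Nfe2l2 were at -0.43 and -0.36 (adjusted p = 0.0915 and 0.0784), each with HFD+As pools below every other pool. Of 10 measured genes for ubiquitin, its activating enzymes and its shuttle factors 3 were positive (median -0.19) and 0 passed.

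Among 9 measured proteotoxic stress genes, most of which encode chaperones and their partners, 3 were called higher in HFD+As. The small heat shock protein gene Hspb1 rose by 1.51 (SE 0.22, adjusted p = 0.0302), the cytosolic Hsp90 gene Hsp90aa1 by 0.69 (SE 0.16, adjusted p = 0.0467) and Hsph1 by 0.59 (SE 0.14, adjusted p = 0.0468). The list's median was 0.23, with 5 of 9 positive and 1 lower at an unadjusted p under 0.05. Zfand2a read 10.63 and 10.65 in the LFD pools and 10.27 and 10.33 in the HFD+As pools. The median of the proteotoxic list was 0.31 in LFD+As with 8 of 9 positive, and 0.32 in HFD with 7 of 9 positive. By limma 0 were called in either, with 3 and 4 higher at an unadjusted p under 0.05. Neutrophil markers, which mark cells that bring their own transcripts into bulk liver, moved in the same comparison. All 7 were positive with a median of 0.43, and S100a8, S100a9 and Retnlg passed (0.92, 0.81 and 0.69). In HFD 6 of 7 were positive (median 0.18), with 0 called and 3 higher at an unadjusted p under 0.05. The neutrophil list's mean signal was 6.40 and 6.60 in LFD and 6.95 or higher in both HFD+As pools. These means lie below the median signal of all fitted clusters (7.43). In HFD+As Csf3r was at 0.05 and Camp at 0.13. Sinusoidal endothelial markers had a median of -0.36, with Stab2 and Kdr lower (-0.91 and -0.69), stellate cell markers of -0.18 and cholangiocyte markers of -0.08. The part of these cell types in the proteasome values was not tested.

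Arsenite on the low-fat diet and the high-fat diet alone gave smaller medians of the same sign over the members, with 0 called in either. This did not hold for every role or member. The inducible and thymic beta subunits had a median of -0.14 in LFD+As and 0.24 in HFD, against 0.09 in HFD+As. Psmd10 was at 0.41 in HFD and 0.17 in HFD+As. In LFD+As 47 of 57 members were positive (46.1% of all clusters), with a median of 0.09 against -0.01. The largest were Psma5 and Psma7 at 0.28 (SE 0.16 and 0.17), and 0 members had an unadjusted p under 0.05 (2.38% of all clusters, 1.14% higher). Both LFD+As pools lay above both LFD pools for 16 members (11.2% of all clusters). In HFD 44 of 57 were positive (43.5% of all), with a median of 0.12 against -0.02. Psmg1 (0.44), Psmb8 (0.42), Psmd10 (0.41) and Psma7 (0.39) had an unadjusted p under 0.05 (7.02% of members and 7.71% of all clusters, 4.52% with a positive sign), with adjusted p from 0.517 to 0.640. Both HFD pools lay above both LFD pools for 27 members (17.2% of all clusters). The limma fit called 0 of the 23410 clusters in each of these comparisons. The 3 comparisons with LFD share its 2 pools. The members were bright, with a median signal of 10.09 against 7.43 for all fitted clusters. Over all clusters the difference from LFD had a rank correlation with signal level of 0.16 in LFD+As, 0.30 in HFD and -0.19 in HFD+As. Over the members it was 0.28, -0.26 and -0.02. The part of signal level in the shares given here was not tested.

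Arsenite within the high-fat diet and the high-fat diet under arsenite were compared next, and these share the HFD+As pools. In HFD+As against HFD 46 of 57 members were positive (47.3% of all), with a median of 0.19 against -0.02. Psma7 was at 0.85 (SE 0.17), Psma5 at 0.60 and 0.54 and Psmb6 at 0.57, and 28.1% of the members had an unadjusted p under 0.05 with a positive sign against 6.66% of all clusters. The HFD+As pools lay above the HFD pools for 30 members (22.6% of all). In HFD+As against LFD+As 45 of 57 were positive (47.9% of all), with a median of 0.20 against -0.01. Psma7 was at 0.96 (SE 0.17), Psmb1 at 0.69, Psmb6 at 0.68 and Psmg4 at 0.68, each with adjusted p = 0.0796. Of the members 18 had an unadjusted p under 0.05 (18.4% of all clusters), 17 of them higher (5.94% of all), and 31 had HFD+As pools above the LFD+As pools (21.2% of all). By limma 0 of 23410 clusters passed in either comparison, with 4455 and 4312 at an unadjusted p under 0.05. Among the 60% brightest genes 3 of 46 members passed in the first (Psma7, Psmb6 and Psma5; 3.63% of all genes) and 6 in the second (these and Psmb1, Psmg4 and Psmd13; 10.3% of all genes).

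For the interaction, the arsenite effect on the high-fat diet minus that on the low-fat diet, 39 of 57 members were positive (50.4% of all) with a median of 0.12. Psma7 was at 0.58 (SE 0.24, adjusted p = 0.552), Psmb1 at 0.43 (SE 0.19) and Psmg4 at 0.41 (SE 0.17), while Psmd10 was at -0.43 (SE 0.19). By limma 0 members and 0 clusters passed, and 5 members and 9.01% of all clusters had an unadjusted p under 0.05, 4 and 2.90% of them higher. The median over the members was 0.01 without HFD+As replicate 2. Averaged over both diets, arsenite gave a median of 0.13 over the members with 47 positive (43.7% of all clusters). At an unadjusted p under 0.05 were 18 members, all higher (4.13% of all clusters). Averaged over both waters, the high-fat diet gave 0.16 with 46 positive (42.1% of all) and 21 higher at an unadjusted p under 0.05 (7.03% of all). By limma 0 members passed in either, against 0 clusters for arsenite and 0.0214% of all clusters for the diet (0.00854% higher), and Psma7 was the highest at 0.56 and 0.68.

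The 2 pools of a group differed for many members together. Replicate 1 was above replicate 2 for 49 of 57 members in LFD and 43 in LFD+As, and replicate 2 was above replicate 1 for 39 in HFD and 43 in HFD+As. Replicate 2 was the higher for 44.1% of all clusters in LFD, 45.2% in LFD+As, 46.7% in HFD and 49.3% in HFD+As. The median gap, replicate 2 minus replicate 1, was -0.11, -0.19, 0.05 and 0.17 in that order, and over all clusters it lay between -0.03 and -0.00. Against the LFD mean, the median over the members was 0.20 and 0.01 in the LFD+As pools, 0.06 and 0.16 in the HFD pools and 0.21 and 0.38 in the HFD+As pools. The HFD+As pools were the 2 highest by this measure, and LFD+As replicate 1 came within 0.01 of the lower of them. Psma7, Psma5, Psmb6, Psmb1, Psmg4 and Pomp were raised in both HFD+As pools, whereas Psmd1, Psmd3, Psmc4 and the Psma3 clusters were above LFD in the second pool and at or below it in the first.

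Signals of all genes followed the genomic span of the gene (first to last base, introns included) differently in each array, and HFD+As stood apart. The rank correlation of deviations with span over 21695 clusters was -0.35 and -0.27 in the HFD+As pools and between -0.08 and 0.30 in the other 6. In HFD+As against LFD the rank correlation of the difference with span was -0.34 over all clusters and -0.07 over the 56 members with a span, with no p given because clusters share arrays. The member genes had a median span of 11930 bases against 18686 for all clusters. By quartile of span, from shortest to longest, the median was 0.14 over 13 members and 0.05 over all clusters, 0.35 over 24 members and -0.02 over all, 0.27 over 14 members and -0.08 over all, and 0.06 over 5 members and -0.13 over all. With the span trend removed from each array 13 of 56 members passed, all 8 called before among them, where 3.15% of all clusters did, and the median over the members was 0.33. Without removal, 11 of the same 56 passed, where 6.08% of all clusters did.

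**Figure D4:**
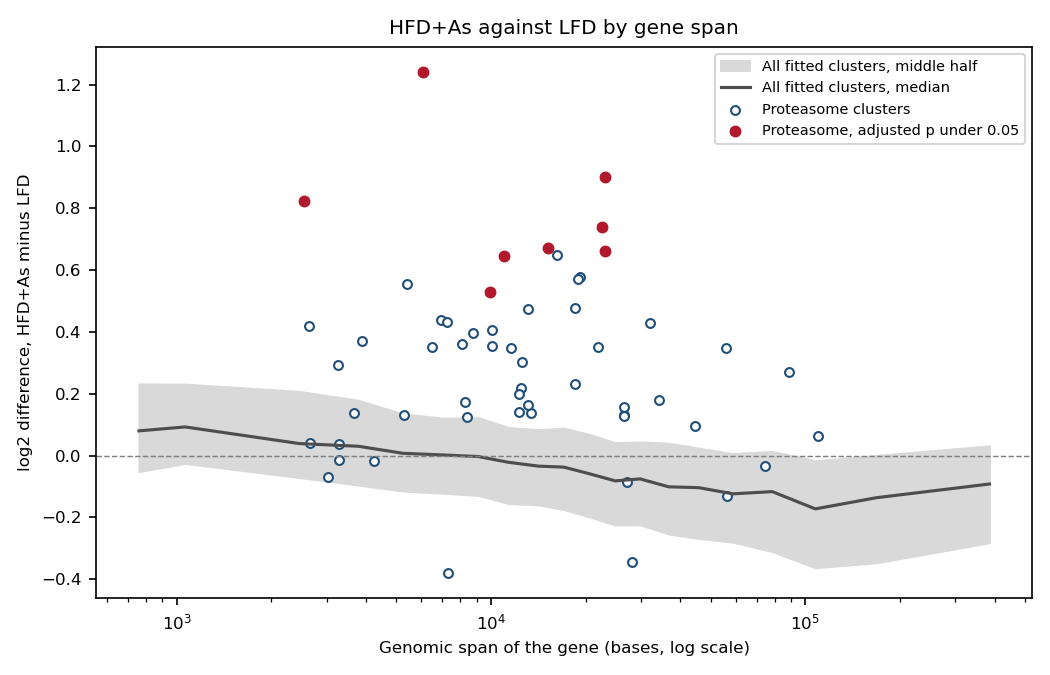
Points are the proteasome clusters' log2 differences, HFD+As minus LFD, against genomic span in bases on a log scale (red for an adjusted p under 0.05), and the line and band are the median and interquartile range of all fitted clusters. The line falls with span, and the members' median lies above that of all clusters in each of the 4 span quartiles, by least in the shortest.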

How the data were processed

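Signals of 8 arrays were taken from the table of log2 values per transcript cluster that the authors deposited; the submitters' processing notes name Expression Console 1.0, and the background, normalization and summary methods are not given in the sources used here. Array medians lay between 7.08 and 7.18, and the values were used as they are. The 23410 clusters with a gene symbol in the platform annotation were fitted without an expression filter, since the 12146 without one may hold control features. One limma fit (3.58.1, R 4.3.3) of 4 group means had 4 residual and 5.29 prior degrees of freedom; the Benjamini-Hochberg adjustment was made for each of 8 comparisons, with a threshold of 0.05. The median SE of a pairwise difference was 0.13, and the number of arrays limits the precision. The fit was checked on simulated data with independent noise for each cluster, which lack the shifts that many members shared within a pool. Whether dim signals exceed background is unknown, as the table holds no detection calls. Genomic spans came from RefSeq's GRCm38.p6.

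The members and lists were chosen with earlier results of these data known. Values are given for members past the threshold, for Psmb5 to Psmb10, Psme1 and Psme2, and for the highest and lowest member of each role in HFD+As against LFD, and other members are given by range or as examples chosen after their values were seen. A listed gene is represented by its cluster with the highest mean; lists are described by counts and medians without a test. Alternatives were all clusters, the brighter genes, quantile normalization, equal medians, an intensity trend, the compared arrays alone, a replicate block, removal of the span trend and each array left out.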

Additional observations from a re-analysis of the deposited data

How the results depend on the processing

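The medians over the members kept a positive sign in all 8 comparisons under every alternative run. The counts of members called depended on the processing, and the causes were not tested. Each count is given with the share of all fitted clusters called. In HFD+As against LFD (8 called, 4.57%) the count was 15 among the 60% brightest genes (16%), 13 with the span trend removed (3.15%), 12 with quantile normalization (5.05%), 11 with an intensity trend (6.17%), 5 with equal array medians (1.55%), 1 with the compared arrays alone (0.666%) and 0 with all clusters of the table (0%). With 1 array left out it lay between 0 and 7 (0% to 4.73%). The median over the members then lay between 0.18 and 0.38 there, 0.014 and 0.20 for LFD+As against LFD, 0.086 and 0.28 for HFD+As against HFD, 0.16 and 0.29 for HFD+As against LFD+As and 0.013 and 0.18 for the interaction, and the diet average had 0 to 4 called (4, and 2.27%, without HFD replicate 1). In the comparisons with 0 called, the brighter genes gave 3 for HFD+As against HFD (3.63%), 6 for HFD+As against LFD+As (10.3%), 1 for arsenite averaged over diets (0.568%) and 6 for diet averaged over waters (915 of 11963 genes). Fitting the clusters with a span and removing no trend, an alternative chosen after seeing the data, gave 4 for HFD+As against LFD+As (0.876%) and 5 for the diet average (1.93%). The diet average also had 4 with an intensity trend (1.92%) and 3 with the span trend removed (0.733%). Replicate numbers are shared by the groups, but deviations of same-numbered pools correlated between 0.04 and 0.51, not above 0.1 for every pair, so they were not taken as pairs. A fit with the replicate number as a block called 11 members in HFD+As against LFD (6.83%), 1 against HFD (2.39%), 1 against LFD+As (0.419%), 1 in the arsenite average (0.854%) and 5 in the diet average (2.23%).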
